A study of Mus musculus with 6 samples.

Results

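The miR-378 family on the array comprised 5 mature miRNAs, taken by name from the array's own annotation: mmu-miR-378a-3p and mmu-miR-378a-5p, the arms of a hairpin inside the Ppargc1b gene, and the near-identical copies mmu-miR-378b, mmu-miR-378c and mmu-miR-378d. The prefix for mouse is left out from here on. They made up 5 of 1247 mouse miRNAs and 10 of 3105 mouse probes. The family was chosen on earlier results for the IL-6 and control intensities of these same arrays, so its IL-6 differences are given as a description, without p-values. The RNA came from 3T3-L1, a mouse preadipocyte line widely used to grow adipocytes in a dish. On the 2 IL-6 arrays, the cells had received interleukin-6, an inflammatory cytokine, at 1 ng/ml from the induction of differentiation onwards, with medium changed daily. The 4 control arrays held untreated cells. All cells, treated and untreated, went through the same differentiation with isobutyl-methylxanthine, dexamethasone, insulin and rosiglitazone and were collected on day 8. Whether arrays within a group were grown as independent cultures is not stated, so the errors given here cover differences among these samples only, possibly of technical origin.

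miR-378a is transcribed together with its host Ppargc1b, which encodes PGC-1β, a coactivator of mitochondrial and lipid genes. In mice its 3p arm represses Crat, a mitochondrial enzyme of fatty acid metabolism, and its 5p arm represses Med13, a Mediator subunit that tunes nuclear receptor activity. miR-378a is abundant in fat and muscle and rises as preadipocytes differentiate. The arrays read no mRNA, so Ppargc1b and the targets were not measured. A miRNA finds its targets mainly through its seed, here bases 2 to 8 from the 5′ end, so copies with different seeds may differ in their targets.

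The mature sequences of the 3 copies with an entry in RefSeq (GRCm38.p6) are shown because they set what each probe can tell apart. Capitals mark the seed.
miR-378b: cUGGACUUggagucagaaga
miR-378c: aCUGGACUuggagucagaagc
miR-378d: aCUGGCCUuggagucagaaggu
Counted from 1 at the 5′ end of miR-378c, miR-378d differed from it by A6C and C21G and had 1 further base at its 3′ end, 22 against 21 bases. miR-378b, with 20 bases, began 1 base later and differed from miR-378c by C21A alone, which left a shared run of 19 bases. The seeds of these 3 copies were therefore all different, and no other mature miRNA of the RefSeq table used here had any of them. The seeds of miR-378b (UGGACUU) and miR-378c (CUGGACU) come from the same stretch shifted by 1 base, so they overlap in large part. Whether the copies differ in targets was not tested. The arms of miR-378a were not among the sequences searched, so their seeds were not compared and no seed is shown to belong to 1 copy alone.

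Each miRNA was read by 2 probes that differed in length by 1 base. The 6 probes for the copies are shown 5′ to 3′ because they pair with the 3′ part of the miRNA. That part holds a run of 14 bases shared by the copies, while their last bases differ. Capitals mark the bases outside a stretch of 14 bases that all 6 have in common.
miR-378b, 16 bases: TcttctgactccaagT
miR-378b, 17 bases: TcttctgactccaagTC
miR-378c, 15 bases: Gcttctgactccaag
miR-378c, 16 bases: GcttctgactccaagT
miR-378d, 16 bases: ACcttctgactccaag
miR-378d, 17 bases: ACcttctgactccaagG
On the whole array, 6 of 3105 probes held that stretch. The miR-378b probes covered bases 5 to 20 and 4 to 20 of their miRNA, the miR-378c probes bases 7 to 21 and 6 to 21, and the miR-378d probes bases 7 to 22 and 6 to 22, so none of the 6 covered a whole seed. The 16-base miR-378b probe pairs with miR-378c over 15 of its bases, and the 16-base miR-378c probe pairs with miR-378b over 15. Either miR-378d probe pairs with miR-378b or miR-378c over an unbroken run of 14 bases. The 13-base and 14-base probes for miR-378a-3p pair in full, over 13 and 14 bases, with miR-378d, and over 12 and 13 bases with miR-378b and miR-378c. By sequence, therefore, signal listed under miR-378a-3p, b, c and d cannot be assigned to a single copy. The miR-378a-5p probes share at most 4 bases in a row with the copies, and stand apart from this overlap.

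The copies lay on different chromosomes in GRCm38.p6. The array's header names mm9, but all 10 listed probe positions fall within the GRCm38.p6 hairpins, so that build is used here. The miR-378a hairpin was at chr18:61397835-61397900, within the bounds of Ppargc1b (61291445 to 61400756). The miR-378b hairpin was at chr11:88352773-88352864, within the bounds of Msi2, which encodes an RNA-binding protein, and its mature form spanned 88352839 to 88352858 on the plus strand. The miR-378c hairpin was at chr14:46954830-46954928, within the bounds of Samd4, which encodes a translational repressor, and of the lncRNA Gm52120, and its mature form spanned 46954905 to 46954925 on the minus strand. The miR-378d hairpin was at chr10:126710282-126710391, with its mature form at 126710355 to 126710376 on the minus strand. No other annotated gene overlapped it, and the nearest coding gene, Atp23, was 157438 bases away. The mature form lay in the first part of its hairpin for miR-378c (bases 4 to 24 of 99) and miR-378d (bases 16 to 37 of 110), and in the last part for miR-378b (bases 67 to 86 of 92).

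All 5 miRNAs were detected on all 6 arrays, which required at least 0.5 of the spots of a probe to stand well above background. Each probe had 20 spots, and no spot was saturated. Spot-to-spot variation within an array, as a coefficient of variation, ran from 1.28% to 6.93% for the probes of miR-378a-3p, b and d. It ran from 5.92% to 14.2% for miR-378a-5p, and from 3.99% to 8.69% for the 16-base miR-378c probe. The 15-base miR-378c probe was the exception, with 11.9% to 21.6%, and between 0% and 85% of its spots stood well above background, so that it counted as detected on 3 of 6 arrays.

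Array-wide brightness differed between samples. The 75th percentile of the 502 probes detected on all arrays was 440 and 369 intensity units on IL-6 arrays 1 and 2 and ranged from 248 to 396 on the controls, and each array was divided by its own percentile and multiplied by the mean of the 6. Of 12 miRNAs listed as markers of muscle, blood, liver, nerve and endothelium, 11 were on the array and none of these was detected on any array; the summed scaled level of the muscle markers was 0.49 to 1.94 on the IL-6 arrays and 0.90 to 3.38 on the controls. The 7 markers of fibroblast and fat cell cultures were all tested, with a summed level of 13625 to 14153 on the IL-6 arrays and 14387 to 16218 on the controls. Their median difference was -0.15, with differences from -0.39 to 0.05. Differences were below 0 for 6 of the 7, beside 55.2% of all tested miRNAs. Some of the 7 are also listed below among the miRNAs that rise during adipocyte differentiation, and both lists have the same lowest value. Both IL-6 arrays were below all controls for 4 of the 7, beside 21.7% of the 299 tested miRNAs. The part of these 7 markers in the family's difference was not tested. All 6 arrays sat on 1 slide and were scanned together. The IL-6 arrays lay in slide row 2 and the controls in row 1, so row and treatment cannot be told apart.

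The signal of the whole family was lower with IL-6 after this scaling. All 5 members had both IL-6 arrays below all 4 control arrays, which was also true of 21.7% of the 299 tested miRNAs, while 13.0% had both above. In a whole culture, fewer cells that hold a miRNA and less of it in each cell cannot be told apart. The differences were small, from -12.3% to -17.9%, and none of the members passed the test over all tested miRNAs (0 of 5 by limma at an adjusted p under 0.05, where 0.334% of tested miRNAs passed in either direction and 0% as lower). At an unadjusted p under 0.05, 5 of 5 members were lower, as were 12.0% of tested miRNAs, with 10.7% higher. These counts come from the contrast that was known when the family was chosen, so nothing is read from them.

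miR-378a-3p, the arm that represses Crat, measured 431 and 482 scaled intensity units on IL-6 arrays 1 and 2, against 517, 516, 544 and 503 on control arrays 1 to 4. The arrays of the groups did not overlap, and IL-6 array 2 and control array 4 lay closest to each other. Mean ± SD was 456 ± 36.3 over the 2 IL-6 arrays and 520 ± 17.3 over the 4 controls, and the log2 difference was -0.19 ± 0.07 (limma SE), or -12.3%.

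miR-378a-5p, cut from the other arm of the same hairpin and a repressor of Med13, measured 38.6 and 41.3 units on the IL-6 arrays, against 46.6, 46.3, 47.5 and 43.6 on the controls. Again the groups were apart, with control array 4 the lowest of its group. Mean ± SD was 39.9 ± 1.86 (IL-6, n = 2) against 46.0 ± 1.69 (control, n = 4), a log2 difference of -0.20 ± 0.07 (SE). The arms of miR-378a thus had differences of -0.19 and -0.20, and the miR-378a-5p probes are the ones that do not overlap in sequence with the copies.

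miR-378b measured 323 and 354 units on the IL-6 arrays, against 382, 386, 420 and 404 on the controls. This gave 338 ± 22.1 (SD) over IL-6 arrays against 398 ± 17.7 over controls, a log2 difference of -0.24 ± 0.07 (SE). miR-378d measured 418 and 462 units on the IL-6 arrays, against 499, 507, 538 and 526 on the controls. Its mean ± SD was 440 ± 30.6 with IL-6, against 517 ± 17.8 without, a log2 difference of -0.23 ± 0.07 (SE). For both copies control array 3 was the highest array and IL-6 array 1 the lowest.

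miR-378c measured 33.3 and 37.7 units on the IL-6 arrays, against 43.4, 42.9, 42.8 and 43.5 on the controls. Mean ± SD was 35.5 ± 3.08 (IL-6) against 43.2 ± 0.35 (control), a log2 difference of -0.29 ± 0.08 (SE), or -17.9%. The groups did not overlap, and the control SD on the log2 scale was 0.01, against 0.05 to 0.06 for the other members. That value averages the 16-base probe, whose own control SD was 0.026, with the 15-base probe detected on 3 of 6 arrays, whose control values were ordered differently. Of 299 tested miRNAs, 14 had a lower difference than miR-378c, 28 than miR-378b, 29 than miR-378d, 40 than miR-378a-5p and 52 than miR-378a-3p. These ranks come from the contrast that was known when the family was chosen, so nothing is read from them.

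**Figure D1:**
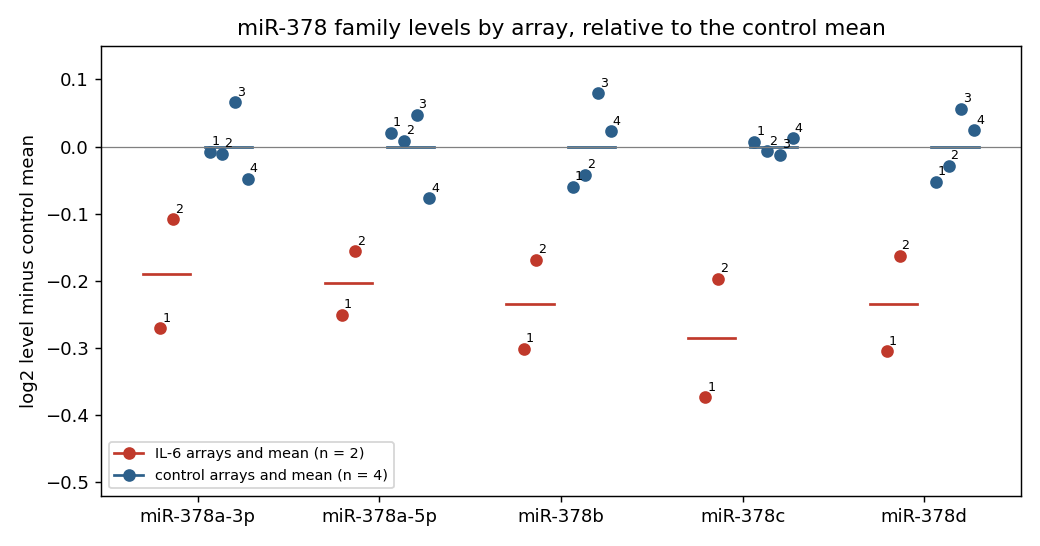
Log2 level of each family member on each array minus that member's control mean (vertical axis), with IL-6 arrays in red left of control arrays in blue, array numbers beside the points and group means as lines. Both IL-6 arrays lie below all 4 controls for every member, array 1 below array 2. The controls of miR-378c are averages of 2 probes, 1 of them detected on 3 of 6 arrays.

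The median difference of the 5 members was -0.23, beside -0.02 for all 299 tested miRNAs, of which 55.2% were below 0. The 5 differences spanned 0.10 on the log2 scale, and the SE of each was 0.07 to 0.08. The members were read on the same arrays, so these SEs are not errors of a difference between members. The order of the members by size of difference was not tested. The SD of all 299 differences was 0.35, and their lower quartile was -0.15.

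**Figure D2:**
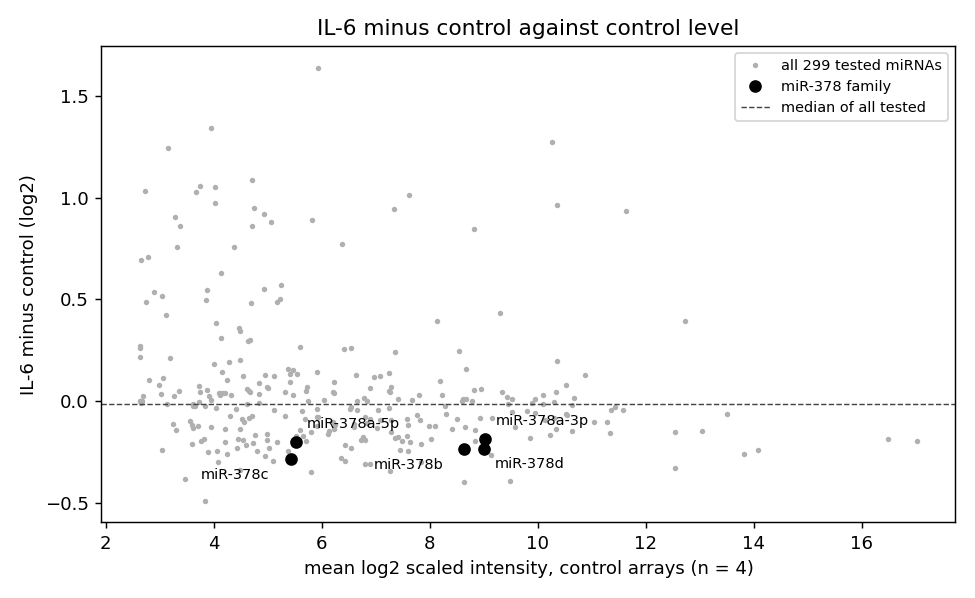
IL-6 minus control on the log2 scale (vertical axis) against mean log2 scaled intensity on the 4 control arrays (horizontal axis) for all 299 tested miRNAs in grey and the 5 family members in black, with the median of all tested miRNAs as a dashed line. The members lie between -0.29 and -0.19, below the median of -0.02.

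Probe by probe, the difference was below 0 for 10 of 10 probes. For 9 of them both IL-6 arrays were below all controls (23.9% of the 502 probes detected on all arrays), and these 9 had differences between -0.29 and -0.19. The 15-base miR-378c probe had overlapping groups, with 9.71 and 11.9 units on the IL-6 arrays against 14.0, 13.6, 11.6 and 11.8 on the controls. The 16-base miR-378c probe, detected throughout, measured 56.9 and 63.4 units with IL-6 against 72.7, 72.3, 73.9 and 75.2 in controls, a difference of -0.29. Where a pair of probes read 1 miRNA, their differences were -0.19 and -0.19 for miR-378a-3p, -0.20 and -0.21 for miR-378a-5p, -0.27 and -0.22 for miR-378b, and -0.23 and -0.24 for miR-378d, shorter probe first.

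**Figure D3:**
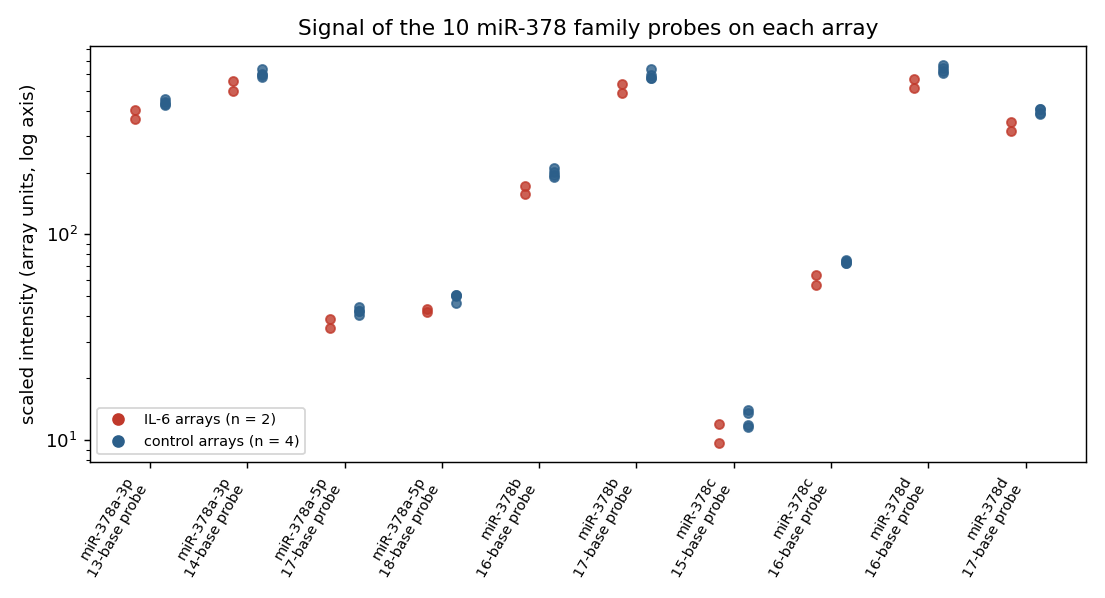
Scaled intensity on a log axis (vertical) of the 10 family probes (horizontal, with probe length), each array a point, IL-6 arrays in red left of control arrays in blue. The groups are apart for 9 probes and overlap for the 15-base miR-378c probe, and miR-378d is the single member whose longer probe reads lower.

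The signal of the longer probe relative to the shorter differed between the copies. The probe with 1 base more was brighter on 6 of 6 arrays, by a factor of 1.35 to 1.40 for miR-378a-3p, 1.12 to 1.20 for miR-378a-5p, 2.83 to 3.18 for miR-378b and 5.18 to 6.37 for miR-378c. For miR-378d the 17-base probe read lower than the 16-base probe on 6 of 6 arrays, at 0.61 to 0.63 of its signal. The extra base of that probe pairs with base 6 of miR-378d, the position of the A6C difference between miR-378c and miR-378d, which the 16-base miR-378d probe stops short of. The 16-base miR-378c probe and both miR-378b probes also reach that position. Among 238 such nested pairs of detected probes across the array, the longer probe was brighter on all arrays in 81.1% and the shorter one in 9.66%. Signals of probes depend on their length and base composition as well as on the amount of RNA, so these ratios describe probes and rank no amounts. Within each probe pair the ranges of the ratio in the groups overlapped. For miR-378d the ratio was 0.62 on both IL-6 arrays and 0.61 to 0.63 on the controls. For miR-378c it was 5.31 to 5.86 on the IL-6 arrays and 5.18 to 6.37 on the controls. The 15-base miR-378c probe was detected on 3 of 6 arrays, so that pair is not among the 238. How much of each copy's signal came from another copy was not tested.

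The members varied alike across arrays. Over the 10 pairs of members, Pearson's r of the log2 levels over 6 arrays ran from 0.88 to 0.996. The median over all pairs of tested miRNAs was 0.02. Such r values include the IL-6 difference known when the family was chosen, so nothing is read from that contrast. With each array as a deviation from its group mean, the member pairs ran from 0.40 to 0.98, beside a median of 0.05 over all pairs. The deviations of the 2 IL-6 arrays are equal and opposite by construction. IL-6 array 1 was below array 2 for every member, so the r values of deviations rest in part on that 1 difference. The closest pair was miR-378b and miR-378d (0.996), and it stayed closest when each array was taken as a deviation from its group mean (0.98). miR-378a-3p and miR-378a-5p had 0.96, and 0.88 as deviations. miR-378a-5p followed the copies less closely within groups, with 0.40 for miR-378b, 0.41 for miR-378d and 0.48 for miR-378c. Without scaling the member pairs lay between 0.95 and 1.00, beside a median of 0.80 over all pairs, and such values share each array's brightness. All these values rest on 6 arrays that share a slide, and no p-value is given.

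The miRNAs outside the family named here had the scaled levels most correlated with miR-378a-3p and miR-378d. They were picked for the highest r among all tested miRNAs, so their high values follow from the pick. Nothing is read from how they compare with the members, which were not picked that way. These correlations hold the IL-6 difference known when the family was chosen, so the values as deviations from the group means are given too. The deviations are part of the values used for the pick and are no separate check. The 5 most like miR-378a-3p, the member with the highest signal, were miR-30e-3p (r = 0.95), miR-652-5p (0.95), miR-30a-3p (0.95), miR-345-5p (0.95) and miR-542-5p (0.94). As deviations the 5 values were 0.83, 0.84, 0.88, 0.80 and 0.90 in that order, against 0.72 to 0.88 for the other members. By scaled levels miR-378a-5p ranked nearest to it, miR-378d stood at rank 6, miR-378b at 8 and miR-378c at 12. The 5 most like miR-378d were miR-30a-3p (0.99), miR-193a-3p (0.96), miR-3091-5p (0.96), miR-212-3p (0.96) and miR-5097 (0.95). As deviations these were 0.96, 0.92, 0.93, 0.84 and 0.74, against 0.41 to 0.98 for the other members. miR-193a-3p, linked to brown fat differentiation in mouse, differed by -0.27 ± 0.09 (SE), with a log2 level of 8.88 with IL-6 and 9.14 in controls. miR-30a-3p, the passenger arm of a miR-30 hairpin, differed by -0.27 ± 0.07 (SE) and stood in both groups of 5. Both miR-193a-3p and miR-30a-3p were picked by r values that hold the IL-6 difference. A difference below 0 is thus built into the pick, and nothing is read from it.

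Of 22 miRNAs listed as rising during adipocyte differentiation, other than miR-378a, 20 were tested. None passed in either direction (limma, adjusted p under 0.05), beside 0.334% of all 299 tested miRNAs. Differences were below 0 for 16 of the 20, beside 55.2% of all tested miRNAs. Both IL-6 arrays were below all controls for 4 of the 20, beside 21.7% of all tested miRNAs. The median difference was -0.11, beside -0.02 for all tested miRNAs, and the differences ran from -0.39 to 0.07, so that the lowest lay below every member of the miR-378 family. The 3 with the highest signal were miR-103-3p (-0.11 ± 0.08 SE), miR-26a-5p (0.04 ± 0.05) and miR-107-3p (-0.14 ± 0.08), as log2 differences. miR-103 and miR-107, which restrain insulin sensitivity in mouse, also lie in introns of the Pank genes of coenzyme A synthesis. Of 20 miRNAs listed as lying in introns of named host genes, among them genes of energy metabolism and fat, 14 were tested, 0 passed in either direction, and the median was -0.01, with differences between -0.16 and 0.05. The lists share members, and the same 3 miRNAs had the highest signal in both.

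The direction of the family's difference depended on the scaling between arrays. On unscaled intensities all 5 members were slightly above 0, from 0.01 for miR-378c to 0.10 for miR-378a-3p. For no member did the groups separate. Separation with IL-6 lower was found for 0% of the 299 tested miRNAs without scaling, so its absence is not particular to the family. miR-378a-3p then measured 530 and 498 units on the IL-6 arrays, against 502, 571, 378 and 483 on the controls, with control array 3, which also had the lowest 75th percentile, the dimmest. The median of all tested miRNAs moved by 0.28 without scaling, to 0.27, so that the family stayed 0.21 below it. With the scanner's total gene signal in place of the probe averages, which moved that median by -0.11, all 5 members passed limma's test as lower, as did 9.70% of tested miRNAs. Set against the median of all tested miRNAs in that setting, the family's median was -0.22. The contrast was known when the family was chosen, so nothing is read from that count. With each array scaled over all mouse probes, which also moved that median by -0.11, the members ran from -0.40 to -0.30. Set against the median of all tested miRNAs, the family's median lay between -0.33 and -0.14 over all 21 alternatives, and at -0.22 with the scaling used here.

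Slide columns 3 and 4 each held 1 IL-6 and 1 control array. Within column 3 the members differed by -0.34 (miR-378a-3p), -0.30 (miR-378a-5p), -0.38 (miR-378b), -0.36 (miR-378c) and -0.36 (miR-378d). Within column 4 the differences were -0.06, -0.08, -0.19, -0.21 and -0.19 in the same order, smaller for each member. Without IL-6 array 1 the difference of miR-378a-3p was -0.11, and that of miR-378c was -0.20. The size of the difference therefore rests in part on IL-6 array 1, the lower of the 2 for all 5 members.

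**Figure D4:**
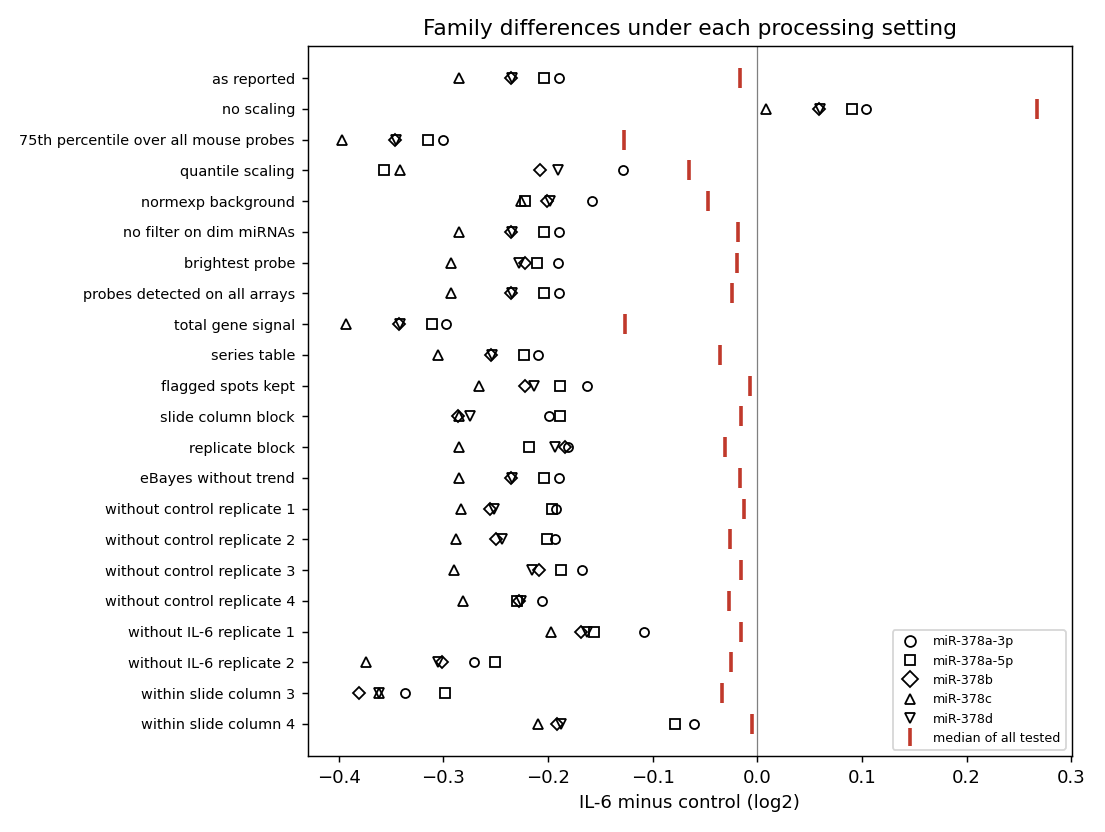
IL-6 minus control on the log2 scale (horizontal axis) of the 5 family members under each processing setting (vertical axis, 1 row a setting), with the median of all tested miRNAs as a red bar. The members lie below that median in every row shown, and above 0 in the row without scaling, where the median of all tested miRNAs is 0.27.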

How the data were processed

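MicroRNA was measured on 1-colour Agilent mouse arrays, one for each of the 6 samples, grouped by sample title. Agilent Feature Extraction 10.10.1.1 had quantified the spots, per the file headers, and the deposited intensity values had a spatially fitted background subtracted, with no normalization between arrays. The deposited series table held linear intensity equal to the scanner's total probe signal (largest difference 0). Spots flagged as uneven or outlying were left out, spots and then probes averaged, arrays scaled to the 75th percentile of 502 probes detected on all arrays, values below 6.25 set to that floor, and log2 taken. The 299 miRNAs detected on all arrays of a group were tested with limma 3.58.1 in R 4.3.3 (mean trend, no covariates, two-sided, Benjamini-Hochberg, threshold 0.05). The number of arrays limits the precision. Members and lists were chosen with earlier results of these data known. Named beside the members are the 5 tested miRNAs most correlated with each of the 2 brightest members and the 3 brightest of each list. Sequences and loci are RefSeq's (GRCm38.p6); 3 of 5 members matched.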

Additional observations from a re-analysis of the deposited data

How the results depend on the processing

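Of 19 alternative fits, all 5 members were below 0 in 18, and no member passed limma's test in 18. With the scanner's total gene signal 5 members passed as lower, with 9.70% of all tested miRNAs, and differed by -0.30 (miR-378a-3p), -0.31 (miR-378a-5p), -0.34 (miR-378b), -0.39 (miR-378c) and -0.34 (miR-378d), with a family median of -0.34 and medians of -0.22 for the adipogenesis list and -0.093 for the host gene list. The median over all 299 shifted by -0.11 there. The contrast was known when the family was chosen, so nothing is read from the members that passed. Without scaling the values were, in that order, 0.10, 0.090, 0.059, 0.0085 and 0.060, with medians of 0.060 (family), 0.18 (adipogenesis) and 0.28 (host gene). Scaled over all mouse probes they were -0.30, -0.31, -0.35, -0.40 and -0.35, with medians of -0.35, -0.22 and -0.12. Quantile scaling gave miR-378a-5p -0.36. Within slide column 3 the members had -0.34, -0.30, -0.38, -0.36 and -0.36 (median -0.36); within column 4, miR-378a-3p had -0.061, miR-378a-5p -0.079, miR-378c -0.21 and the adipogenesis list 0.020. The cause was not tested. With single arrays left out the differences ran from -0.27 to -0.11 (miR-378a-3p), -0.25 to -0.16 (miR-378a-5p), -0.30 to -0.17 (miR-378b), -0.37 to -0.20 (miR-378c) and -0.31 to -0.16 (miR-378d), the family median from -0.30 to -0.16, and the list medians from -0.18 to -0.08 and -0.04 to -0.0007, with 0 members called throughout. Both extremes of each member came from leaving out 1 IL-6 array. Where 1 IL-6 array remained, it was assumed to vary like the controls.

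Array numbers 1 and 2 occur in both groups, but no label pairs them, and deviations of same-numbered arrays correlated at 0.06 and -0.34. The deviations of the 2 IL-6 arrays are equal and opposite by construction. The 2 correlations are therefore not separate checks and cannot decide whether the numbers mark pairs. With the number as a replicate block the differences were -0.18, -0.22, -0.18, -0.29 and -0.19, with 0 members called. That fit leaves few arrays for the spread, as does the fit with slide column as a block. Few calls from either of these fits therefore say little. Over all tested miRNAs, 1 passed as reported, against 34 without scaling, 42 with total gene signal (13 higher and 29 lower), 31 when control array 4 was left out, 5 and 3 when IL-6 array 1 or 2 was, 2 with all-probe scaling, with the brightest probe or with no filter, and 0 with normexp, the series table, column as a block or the replicate block. Without a filter, miRNAs at the floor on all arrays were left out.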

Other observations

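The array's annotation places the probes for miR-378c and miR-378d outside their mature sequences in RefSeq. The listed positions end at 46954853 for miR-378c, 72 bases below the end of the RefSeq mature form, and at 126710318 for miR-378d, 58 bases below it. Both lie on the minus strand, and the listed ends fall at base 24 and base 37 counted from the lower end of the hairpin, which are the last bases of the mature forms counted from the 5′ end of the hairpin. For miR-378b, on the plus strand, the listed and RefSeq ends were the same, 88352858.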
